A study of Mus musculus with 14 samples.

Results

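Embryoid bodies (EBs) are floating aggregates of embryonic stem (ES) cells, and those described here were driven towards spinal motor neurons with retinoic acid and SAG, an agonist of the hedgehog receptor Smoothened. The values compared are those of the EB culture labelled WT at day 6, named motor neuron stage in the labels, over the same culture at day 4, named neuronal progenitor stage. They come from 2 of the 14 samples of a mouse study on TAF9B, a paralog of the core promoter factor TAF9. The other samples are ES cells and EBs of day 2, a second set of cultures labelled KO, newborn spinal tissue, and chromatin immunoprecipitation (ChIP) from EBs.

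Both libraries are poly-A RNA from the JM8 clone, a wild type C57BL/6 ES line that was kept on inactivated mouse embryonic fibroblast (MEF) feeders before EBs were formed. The cultures labelled KO come from Taf9b_BG10, 1 clone with the genotype TAF9B -/- on the same background, kept on the same feeders and given the same retinoic acid and SAG. Each condition is 1 library, so no difference between days could be tested and no SD can be given. The expression values are FPKM (fragments mapped to a transcript, per kilobase of its length and scaled to sequencing depth). Day 4 and day 6 were normalized by the authors in separate tables, each beside its KO-labelled partner. Each log2 ratio of day 6 over day 4 was centred on the median of the loci above 1 FPKM in both libraries. This median lay at 0.05 before centring. A locus is called higher or lower here when the centred ratio passes 2-fold, and the words rose and fell are used for such loci only.

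In the ventral spinal cord, progenitors that receive Sonic hedgehog and retinoic acid express patterning factors such as *Olig2*, and Notch signalling keeps neighbouring progenitors from differentiating together. Proneural factors such as *Neurog2* then drive cells out of the cell cycle, and the LIM homeodomain factors *Isl1* and *Lhx3* with *Mnx1* fix motor neuron identity before axons, synapses and acetylcholine synthesis are built. Hox genes, which retinoic acid induces in order along each cluster, set the position of these neurons along the body axis.

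The tables hold 23109 loci that could be joined one to one, and the 12800 that passed 1 FPKM on either day were compared. The targeted gene was not lower under the KO label. *Taf9b* (mm9, chrX:103402222-103416497) had 1.96 FPKM at day 4 and 1.37 FPKM at day 6 in the libraries labelled WT, and 4.27 and 4.01 FPKM in the libraries labelled KO. By the study's methods the KO allele has a reporter cassette in place of the coding exons. A value per locus does not tell reads of coding exons from reads of the exon parts that are left, so it does not check the deletion. Whether these values come from the exon parts that are left or from exchanged columns or labels was not tested, and an exchange would turn every direction given here between WT and KO. Cultures are therefore named by their labels throughout. The paralog *Taf9* was at 181 FPKM at day 4 and 145 FPKM at day 6, with a centred log2 ratio of -0.37. As the nearest measure of spread, the WT- and KO-labelled ES cell libraries differed past 2-fold at 126 of 12021 loci (1.05%), and the libraries of day 2 at 307 of 11957 (2.57%). At day 4 the same comparison gave 2125 of 12549 loci (16.9%), and at day 6 it gave 2652 of 12996 (20.4%). All of these are differences within a stage, so they do not measure the spread of a ratio between separately normalized days. The tables give no read numbers. From the steps between low values, 1 FPKM in a 2 kb transcript was estimated to rest on 215 fragments at day 4 and on 61.8 fragments at day 6, so low values are coarser at day 6.

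Of the 12800 loci, 2052 (16.0%) rose past 2-fold and 1376 (10.8%) fell, and 859 rose and 347 fell past 4-fold. Among the risers, 902 started from under 1 FPKM at day 4, and among the fallers 353 ended under 1 FPKM at day 6. The margin between directions was narrower under other settings. Among the 11257 loci above 1 FPKM on both days there were 1150 loci past 2-fold higher at EB day 6 and 1023 loci past 2-fold lower at EB day 6. With each library scaled to the same sum of FPKM they numbered 1796 and 1750 of the 12800. The risers were of different kinds when set beside the earlier libraries labelled WT. At day 6, 921 of them (44.9%) stood more than 2-fold above both ES cells and EBs of day 2. Another 564 (27.5%) stood at day 6 at or under a level that ES cells already had, so they had dropped by day 4 and came back. Of the fallers, 414 (30.1%) had been under 50% of their day 4 level both in ES cells and at day 2.

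The ratios moved with transcript length. Across 12306 loci Spearman's rho between the ratio and the length of the longest transcript was -0.41 in the culture labelled WT and -0.45 in the culture labelled KO. The loci share their libraries and are not independent, so these are descriptions. Among 885 loci with transcripts of up to 1000 bp, 29.2% rose and 4.52% fell. Among 2153 loci with transcripts over 5000 bp, 6.64% rose and 27.4% fell. Its part in the results was not tested. Medians with the trend removed by a smooth fit on length are given for the groups in which they moved.

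**Figure D1:**
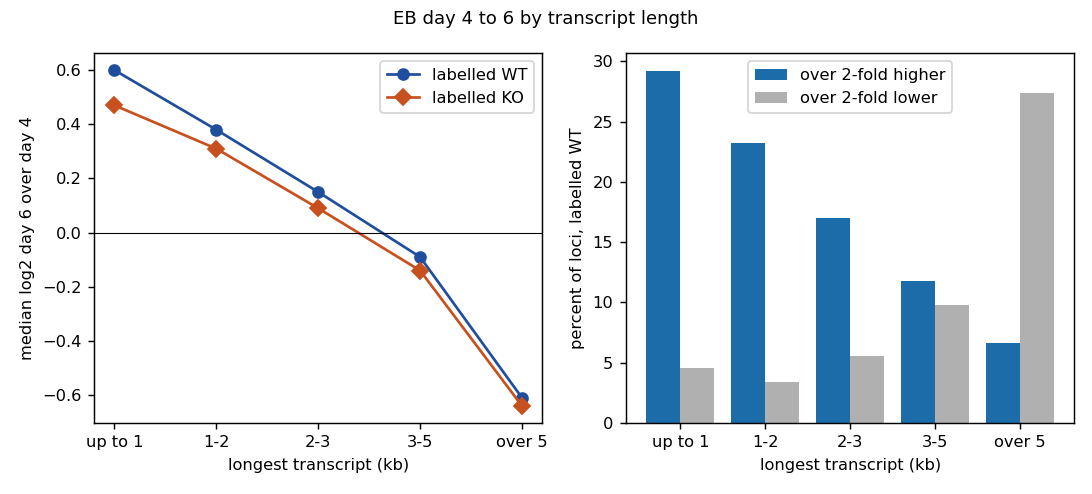
Left, median centred log2 ratio of day 6 over day 4 for loci sorted into 5 bins by their longest transcript (kb), in the cultures labelled WT (circles) and KO (diamonds). Right, percent of the loci of each bin that rose (blue) or fell (grey) past 2-fold in the culture labelled WT. Medians drop from 0.60 for the shortest to -0.61 for the longest transcripts in the culture labelled WT, and the 2 cultures run side by side.

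Proneural and cell cycle exit factors were mostly higher at day 6. Of the 21 members compared, 14 rose and 1 fell, with a median log2 ratio of 1.72, where the background of all loci is 16.0% risen and 10.8% fallen and a median of 0.05. With the length trend removed the median was 1.35, and over members above 1 FPKM on both days it was 0.96. The median of the same genes in the culture labelled KO was -0.38, with 1 member higher and 4 lower, where 12.1% of 13013 loci rose and 11.5% fell. In bulk RNA, more or fewer cells of a type and more or less RNA per cell cannot be told apart, here and in every list of cell types.

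*Neurog2*, the proneural factor that starts motor neuron differentiation, was listed at 0 in ES cells and at day 2. It was at 15.8 FPKM at day 4 and 44.3 FPKM at day 6, a log2 ratio of 1.44. It fell in the culture labelled KO, from 1.62 to 0.219 FPKM. Its relative *Neurog1* rose from 8.96 to 29.7 FPKM. The zinc finger repressor *Scrt2* was at 0.153 FPKM at day 4 and 20.9 FPKM at day 6, a 132-fold rise, and *Scrt1* was at 0.106 and 8.15 FPKM. The helix-loop-helix gene *Nhlh2* rose from 1.35 to 30.2 FPKM, and *Nhlh1* from 1.45 to 15.6 FPKM. *Myt1*, a zinc finger factor of differentiating neurons, rose from 0.166 to 7.52 FPKM. *Ebf3*, which acts downstream of proneural factors, rose from 0.96 to 8.35 FPKM, while in the culture labelled KO it was at 0.563 and 0.641 FPKM. *Hes6*, an inhibitor of Notch effectors, rose from 15.6 to 53.2 FPKM.

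*Cdkn1c*, an inhibitor of cyclin-dependent kinases that is transcribed as neurons leave the cycle, had 8.86 FPKM in ES cells and then 12.5, 27.7 and 228 FPKM on days 2, 4 and 6. It was the one member of the list that also rose in the culture labelled KO, from 53.5 to 169 FPKM. The SoxC genes *Sox4* and *Sox11*, which switch on pan-neuronal genes, did not pass 2-fold, with ratios of 0.41 and 0.40.

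Genomic windows under distal TAF9B ChIP peaks are printed for members of these lists, to show the DNA beside genes of low level in ES cells that rose by day 6. The 2 windows at *Neurog2* are on mm9 at chr3:127328294-127328493, 7.66 kb from its start site, and chr3:127342855-127343054, 6.90 kb from it. The *Lhx4* window printed, with the higher score of its 2, is at chr1:157597665-157597864, 8.61 kb from its start site, and the *Ebf3* window printed, with the highest score of its 3, is at chr7:144510659-144510858, 4.63 kb from its start site. All 4 lie between genes and are given on the plus strand, 200 bases each, centred on the peak. Capitals mark the letters CATCTG or CAGATG, the E-box that proneural factors are known to prefer. They were chosen after their values were seen.
Neurog2 first window: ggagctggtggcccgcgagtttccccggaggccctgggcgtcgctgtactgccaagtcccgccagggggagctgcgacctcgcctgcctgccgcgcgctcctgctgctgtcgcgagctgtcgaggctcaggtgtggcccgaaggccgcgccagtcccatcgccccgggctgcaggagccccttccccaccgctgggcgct
Neurog2 second window: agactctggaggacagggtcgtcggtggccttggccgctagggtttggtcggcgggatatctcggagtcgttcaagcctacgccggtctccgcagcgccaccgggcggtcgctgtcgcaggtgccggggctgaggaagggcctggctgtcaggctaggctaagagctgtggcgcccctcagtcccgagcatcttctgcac
Lhx4 window: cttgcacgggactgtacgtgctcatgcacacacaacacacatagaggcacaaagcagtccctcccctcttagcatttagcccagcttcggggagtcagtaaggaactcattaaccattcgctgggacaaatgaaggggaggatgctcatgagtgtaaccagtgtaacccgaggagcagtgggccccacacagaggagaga
Ebf3 window: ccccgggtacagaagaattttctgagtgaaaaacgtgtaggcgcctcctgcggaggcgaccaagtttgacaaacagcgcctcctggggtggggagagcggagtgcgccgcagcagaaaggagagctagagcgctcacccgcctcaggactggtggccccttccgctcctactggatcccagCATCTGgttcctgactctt

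Motor neuron transcription factors were mostly higher at day 6. Of 16 members compared 11 rose and 1 fell, and the median log2 ratio was 2.34, against -0.15 in the culture labelled KO. Most of the rise came from very low levels, and over the 6 members that were above 1 FPKM on both days the median was 0.26, below the 0.96 of proneural factors taken the same way. *Lhx3* (chr2:26055732-26063769) was at 0.173 FPKM at day 4 and 14.9 FPKM at day 6. *Isl1* (chr13:117088478-117099896) was at 0.301 and then 11.0 FPKM. *Mnx1*, whose promoter is the usual reporter of motor neurons, rose from 2.32 to 14.3 FPKM. All 3 were under 0.5 FPKM in ES cells and at day 2. Under the KO label *Lhx3* was at 0.400 and 0.335 FPKM and *Isl1* at 0.281 and 0.549 FPKM, both under 1 FPKM on both days. *Mnx1* fell there from 5.01 to 1.62 FPKM.

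*Lhx4*, which acts beside *Lhx3*, was at 0.00389 FPKM at day 4 and 2.83 FPKM at day 6. Its log2 ratio of 9.46 is the largest among the compared members of the lists, and it rests on a day 4 level close to 0. *Isl2* rose from 0.149 to 2.02 FPKM and *Onecut2* from 0.489 to 1.18 FPKM.

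Of the 11 factors that rose, 7 stood at day 6 more than 2-fold above both ES cells and day 2. For 3 the ES level was at least that of day 6. One of these is *Tbx3*, a T-box gene that is also used by pluripotent cells, at 17.8 FPKM in ES cells, 0.913 at day 4 and 10.1 at day 6. *Etv4*, at 53.7 FPKM in ES cells, 0.605 at day 4 and 12.9 at day 6, is another.

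Genes for what motor neurons make and display rose less evenly. Of 14 members compared 7 rose and 0 fell, with a median of 0.95, or 1.38 with the length trend removed, against -0.67 in the culture labelled KO. *Slc18a3*, the vesicular acetylcholine transporter, was at 0.984 FPKM at day 4 and 32.2 FPKM at day 6. *Chat*, which makes acetylcholine, was at 0.0586 and 1.05 FPKM. The *Slc18a3* gene lies inside the *Chat* locus, so reads of one can be counted to the other. *Ache*, which breaks acetylcholine down, was at 0.0449 and 1.36 FPKM. The neurotrophin receptor *Ngfr* rose from 0.528 to 21.7 FPKM and *Slit2*, a repellent for axons, from 1.5 to 9.30 FPKM. The GDNF receptor *Ret* had a ratio of -0.44 and peripherin (*Prph*) one of 0.08, both within 2-fold.

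**Figure D2:**
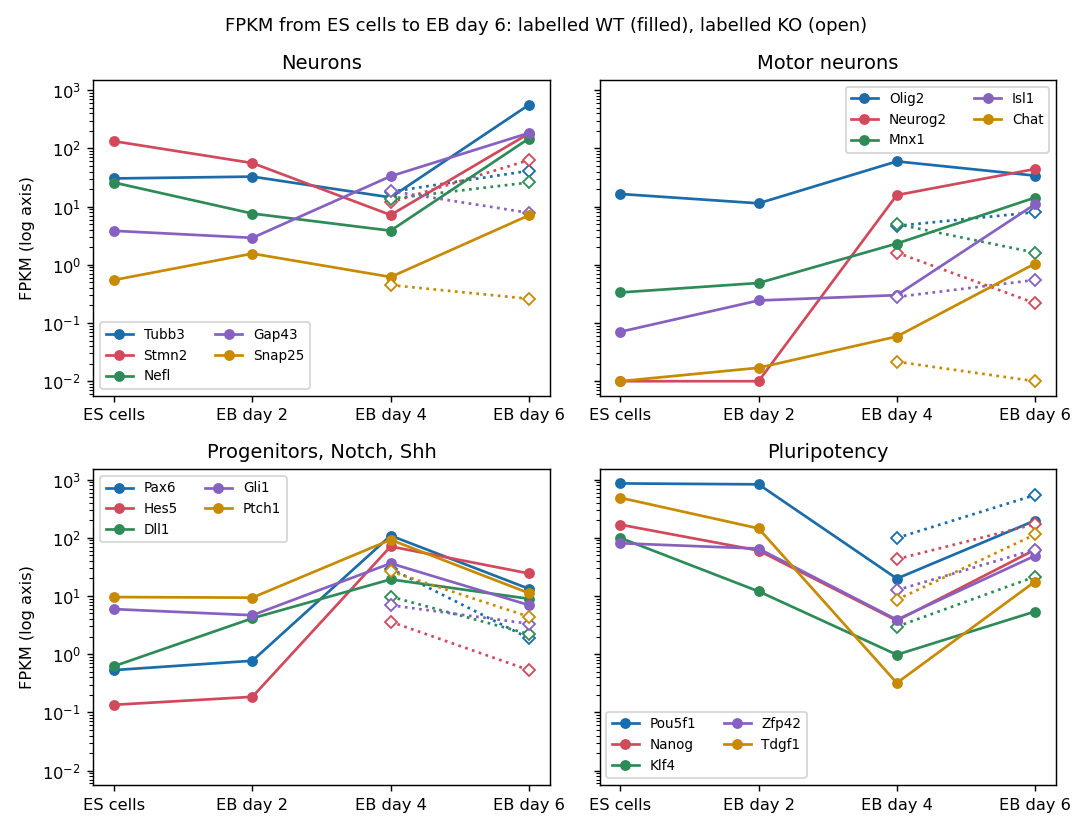
FPKM (log axis) of 5 genes per panel in ES cells and EBs of days 2, 4 and 6, each point 1 library, filled for the culture labelled WT and open for the culture labelled KO at days 4 and 6. Values under 0.01 FPKM are drawn at 0.01. *Tubb3* climbs from 14.4 to 561 FPKM after day 4, *Pax6* and *Ptch1* peak at day 4, and the pluripotency genes are lowest at day 4 and higher again at day 6.

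Interneuron factors were mostly low. Of 27 genes 15 were under 1 FPKM on both days. Of the 12 compared 6 rose and 1 fell, with a median of 1.24. Of these, 7 were above 1 FPKM on both days, and over these the median was 0.51. The largest ratio was that of *Prdm8*, a PR domain factor, which rose from 2.83 to 47.4 FPKM. *Nkx2-9*, a factor of the most ventral progenitors, fell from 19.6 to 2.36 FPKM. The V2 interneuron gene *Vsx1* was at 0.157 FPKM at day 6.

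The neuronal cytoskeleton changed in most of its members. Of 29 genes 20 rose and 0 fell, with a median of 2.01. Of the 20, 19 stood at day 6 more than 2-fold above both ES cells and day 2. The same 29 genes had a KO-labelled median of -0.72, with 5 higher and 10 lower. *Tubb3*, the beta-tubulin isotype of neurons, at chr8:125935324-125945915, went from 14.4 FPKM at day 4 to 561 FPKM at day 6, after 30.5 FPKM in ES cells and 32.8 FPKM at day 2. It rose less in the culture labelled KO, from 18 to 41.3 FPKM. *Tuba1a*, the main alpha-tubulin of young neurons, rose from 590 to 2218 FPKM against 649 and 672 FPKM in the culture labelled KO.

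Of the neurofilament genes, *Nefl* rose from 3.86 to 148 FPKM and *Nefm* from 0.794 to 107 FPKM, while *Nefh*, the heavy subunit that appears later in maturation, was at 2.32 and 1.38 FPKM. The stathmin *Stmn2*, a regulator of microtubule turnover in growth cones, rose from 7.19 to 180 FPKM, although ES cells had held 133 FPKM of it. In the culture labelled KO *Stmn2* also rose, from 11.8 to 63.1 FPKM, as did *Nefm*, from 1.12 to 4.09 FPKM. *Gap43*, the growth cone protein, rose from 33.3 to 184 FPKM and in the culture labelled KO fell from 18.5 to 7.82 FPKM. Doublecortin (*Dcx*), which binds microtubules in migrating neurons, rose from 0.568 to 17.0 FPKM against 0.675 and 0.719 FPKM. *Map2*, the dendritic microtubule protein, rose from 2.86 to 16.0 FPKM and fell from 3.28 to 1.49 FPKM in the culture labelled KO. The long gene product *Map1b* was at 28.4 and 18.2 FPKM, within 2-fold.

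RNA-binding proteins that shape neuronal splicing and mRNA stability moved the same way. Of 15 compared 9 rose and 0 fell, with a median of 1.78 against -0.46 in the culture labelled KO, where 0 rose and 3 fell. The median was 1.01 with 1 FPKM added to both values and 0.64 over members above 5 FPKM on at least 1 day. The Hu protein genes *Elavl3* and *Elavl4* rose from 3.29 to 20.6 FPKM and from 2.73 to 25.6 FPKM, while *Elavl2* had a ratio of 0.64. *Celf3* rose from 1.13 to 23.4 FPKM and *Nova2* from 2.02 to 12.4 FPKM. *Srrm4*, which promotes neuronal microexons, rose from 1.15 to 4.11 FPKM. *Ptbp2*, the splicing repressor of young neurons, was at 57.3 FPKM at day 4 and 34.3 FPKM at day 6, a ratio of -0.79.

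Of 19 genes for synaptic vesicles and release, 14 rose and 0 fell, with a median of 1.73 against -0.56 in the culture labelled KO, where 0 rose and 4 fell. The SNARE genes *Snap25* and *Vamp2* rose from 0.618 to 7.08 FPKM and from 8.98 to 36.3 FPKM. *Rab3a*, the vesicle GTPase, rose from 3.72 to 29.5 FPKM. Synaptophysin (*Syp*) rose from 4.28 to 15.4 FPKM and fell from 5.27 to 1.79 FPKM in the culture labelled KO. A further 9 genes of the list, among them the large active zone genes *Bsn* and *Pclo* at 0.512 and 0.202 FPKM at day 6, stayed under 1 FPKM on both days.

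Of 12 transmitter and peptide genes compared 10 rose and 0 fell, with a median of 3.06 against 0.37. The median dropped to 1.82 when 1 FPKM was added to each value. Somatostatin (*Sst*), a peptide transmitter, was listed at 0 in ES cells and at day 2, and rose from 2.19 FPKM at day 4 to 130 FPKM at day 6, against 3.02 and 1.99 FPKM in the culture labelled KO. The granins *Chgb* and *Scg2* were at 0.424 and 0.0527 FPKM at day 4, and at 8.70 and 3.45 FPKM at day 6. Tyrosine hydroxylase (*Th*), the first enzyme of catecholamine synthesis, was at 0.0327 and then 5.51 FPKM. The GABA enzymes *Gad1* and *Gad2* and the glutamate transporter *Slc17a6* were under 1 FPKM on both days. *Slc17a7*, another vesicular glutamate transporter, was at 0.397 and 3.37 FPKM.

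Axon guidance and adhesion genes split. Of 34 compared 9 rose and 8 fell, with a median of -0.02, and their median transcript is 6386 bp long. With the length trend removed the median was 0.72, with 13 higher and 7 lower, so the balance of this list moved with that correction. The adhesion molecule *Cntn2*, which marks early motor and commissural axons, rose from 0.213 to 33.9 FPKM, a 154-fold rise. *Ncam1* rose from 5.05 to 25.4 FPKM and *L1cam* from 0.872 to 5.18 FPKM. The semaphorin receptor *Plxna2* fell from 19.8 to 3.61 FPKM, and *Sema3c* from 8.89 to 1.23 FPKM. The netrin receptor *Unc5a* fell from 46.1 to 21.4 FPKM, and the Slit receptor *Robo2* from 11.1 to 3.87 FPKM while *Robo1* rose from 2.31 to 6.61 FPKM. Of the 8 that fell, 7 were still past 2-fold with the length trend removed, and *Robo2* was then at -0.80.

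Ion channels and receptors were mostly low. Of 36 genes found 22 were under 1 FPKM on both days, and of the 14 compared 5 rose and 1 fell, with a median of 0.19. The nicotinic receptor subunits *Chrnb2* and *Chrna4* rose from 0.703 to 4.99 FPKM and from 4.28 to 9.21 FPKM. Of the sodium channel genes, *Scn1a* was at 0.0368 FPKM and *Scn8a* at 0.818 FPKM at day 6.

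**Figure D3:**
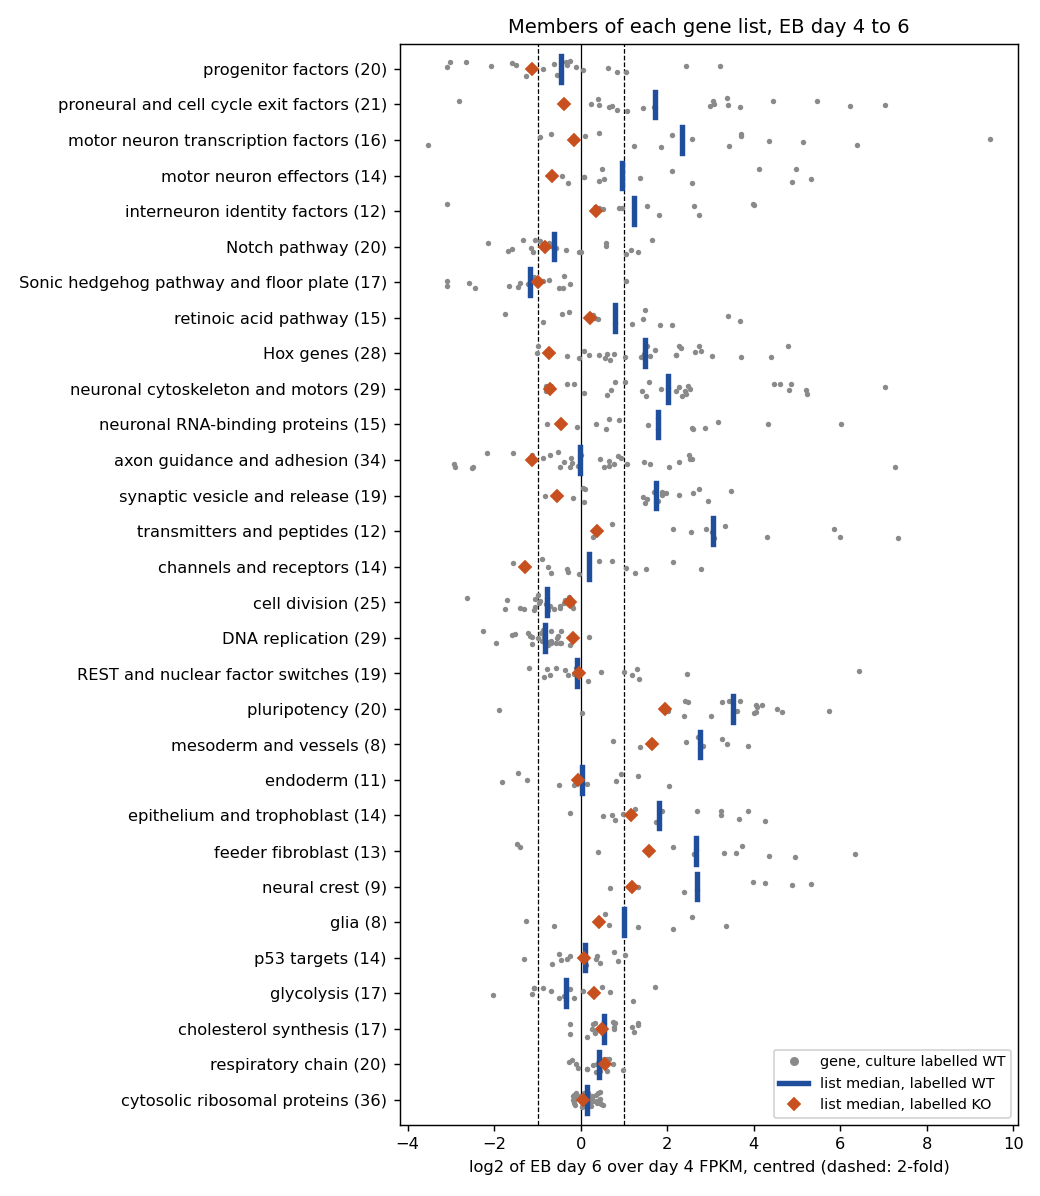
Centred log2 ratio of day 6 over day 4 (x axis, dashed lines at 2-fold) for every compared gene of 30 lists in the culture labelled WT (grey points), with the list median there (blue bar) and in the culture labelled KO (orange diamond), and the number of genes compared in parentheses. Medians of the neuronal lists range from -0.02 for axon guidance to 3.06 for transmitters in the culture labelled WT and from -1.28 for channels to 0.37 for transmitters in the culture labelled KO, and the pluripotency median is right of 0 in both.

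Progenitor factors of the spinal cord were highest at day 4 as a sum. Their FPKM summed to 315 in ES cells and to 240, 730 and 374 on days 2, 4 and 6. Of 20 compared 7 fell and 3 rose, with a median of -0.45 against -1.13 in the culture labelled KO, where 11 fell. *Pax6*, which patterns progenitors by its graded level, was under 1 FPKM in ES cells and at day 2, reached 109 FPKM at day 4 and fell to 13.3 FPKM at day 6. *Sox1* fell from 30.7 to 5.03 FPKM, *Sox3* from 150 to 64.9 FPKM and *Irx3* from 70.0 to 25.4 FPKM. The markers of the motor neuron progenitor domain were within 2-fold. *Olig2* was at 59.9 and 34.1 FPKM, a ratio of -0.87, and *Nkx6-1* at 30.2 and 32.2 FPKM. With the length trend removed the ratio of *Olig2* was -1.02, past 2-fold lower. *Olig2* in the KO-labelled EBs was at 4.67 and 8.02 FPKM and *Nkx6-1* fell from 2.67 to 1.08 FPKM.

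Of 20 Notch pathway genes compared 7 fell and 4 rose, with a median of -0.62, or -0.25 with the length trend removed. The receptors *Notch1* and *Notch2* fell from 11.2 to 5.42 FPKM and from 8.50 to 1.98 FPKM. Their transcripts are 9488 and 10506 bp long, and with the length trend removed the ratio of *Notch1* was -0.20 and that of *Notch2* -1.15. Among ligands *Dll1* fell from 19.3 to 8.95 FPKM and *Jag1* from 4.79 to 1.55 FPKM. *Dll3*, which inhibits signalling within the cell that makes it, rose from 6.54 to 21.2 FPKM. The target *Hes5*, the main Notch effector in neural progenitors, fell from 71.0 to 24.4 FPKM. Of the fringe enzymes, which modify Notch receptors, *Lfng* fell from 13.6 to 5.63 FPKM and *Mfng* rose from 11.9 to 30.5 FPKM. *Numbl*, an inhibitor of Notch, rose from 12.0 to 27.6 FPKM, and *Nrarp*, a feedback inhibitor that Notch induces, from 7.08 to 15.2 FPKM, though with the length trend removed its ratio of 1.05 was 0.93. Among these genes 7 fell and 0 rose in the KO-labelled EBs, with *Dll3* at 1.77 and 1.18 FPKM.

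Of the lists for Notch, Sonic hedgehog and retinoic acid, that for Sonic hedgehog held the most genes that fell. Of 17 compared 10 fell and 1 rose, with a median of -1.18, or -0.99 with the length trend removed, and of -0.99 in the culture labelled KO, where 8 fell. *Ptch1*, the receptor that is also the usual readout of the pathway, stood at 92.6 FPKM at day 4 against 9.58 FPKM in ES cells and 9.37 FPKM at day 2, and fell to 11.2 FPKM. *Gli1*, a transcription factor that is itself a target, had 36.4 FPKM at day 4 against 5.94 and 4.67 FPKM before it, and fell to 6.98 FPKM. *Smo*, the protein that SAG binds, fell from 58.3 to 26.6 FPKM and *Gli3*, whose product is processed to a repressor, from 12.5 to 2.16 FPKM. *Foxa2*, a floor plate factor, fell from 10.1 to 3.8 FPKM, and *Shh* itself was under 1 FPKM on both days. The KO-labelled EBs also showed falls of *Ptch1*, from 26.5 to 4.41 FPKM, and of *Gli1*, from 6.94 to 3.34 FPKM.

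Among retinoic acid genes most that changed rose. Of 15 compared 7 rose and 1 fell, with a median of 0.79, or 0.49 with the length trend removed. *Cyp26b1*, which degrades retinoic acid, rose from 6.15 to 67.3 FPKM, and *Cyp26a1* was at 96.2 and 173 FPKM, within 2-fold. The retinoic acid carrier *Crabp2*, the most abundant gene of the list, fell from 1800 to 552 FPKM, and in the culture labelled KO from 843 to 68.7 FPKM. The receptors *Rara* and *Rarg* rose from 17.3 to 40.6 FPKM and from 7.32 to 21.3 FPKM, while *Rarb* was at 48.0 and 27.1 FPKM. For *Rarg* the ES level, 29.1 FPKM, was higher than that of day 6.

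Of 39 Hox genes 28 could be compared, and 17 rose and 1 fell, with a median of 1.49. Over the 19 members above 1 FPKM on both days it was 0.67. The KO-labelled median was -0.74, with 7 higher and 12 lower. Most members of groups 1 to 4, which lie at the end of the clusters that retinoic acid opens first, were above 10 FPKM at day 4 and within 2-fold afterwards. *Hoxb2* was at 64.8 and 114 FPKM, and *Hoxb4* at 57.7 and 68.3 FPKM. Among these *Hoxd4* fell, from 45.9 to 23.7 FPKM, and *Hoxc4* rose, from 37.3 to 78.6 FPKM, a ratio of 1.02 that was 0.79 with the length trend removed. In groups 5 to 8 all 10 compared members rose. For any member under 1 FPKM at day 4 the filter favoured this, since it was compared only for passing 1 FPKM at day 6. *Hoxb5* rose from 98.1 to 291 FPKM, *Hoxa5* from 26.9 to 175 FPKM, *Hoxb6* from 31.2 to 147 FPKM and *Hoxb8* from 28.0 to 145 FPKM. The same genes in the culture labelled KO were at 47.3 and 12.0 FPKM for *Hoxb5*, which fell, and at 15.5 and 9.99 FPKM for *Hoxb8*. *Hoxc5* rose from 11.6 to 58.5 FPKM and fell from 19.4 to 4.61 FPKM in the culture labelled KO. From group 9 on all 6 compared members rose too, and *Hoxb9* was the highest of them at day 6, at 8.23 FPKM. Here too members under 1 FPKM at day 4, such as *Hoxc9*, were compared only for passing 1 FPKM at day 6. Of the 6, 4 rose in both cultures, among them *Hoxc9*, from 0.119 to 1.61 FPKM and from 0.461 to 2.14 FPKM.

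Cell division and DNA replication genes leaned lower. Of 25 division genes 8 fell and 0 rose, with a median of -0.78, and of 29 replication genes 8 fell and 0 rose, with a median of -0.82. Over all loci compared 10.8% fell. With the length trend removed 5 division genes and 9 replication genes were past 2-fold lower. Of the 54 genes in all, *E2f1* alone had a ratio above 0, at 0.18. The medians in the culture labelled KO were -0.25 and -0.19, and the ratio was lower in the culture labelled WT for each of the 54. *Mki67*, a marker of cycling cells, fell from 32.0 to 5.39 FPKM, but its transcript is 10075 bp long and its ratio of -2.62 became -1.66 with the length trend removed. *Rrm2*, a subunit of ribonucleotide reductase, fell from 286 to 131 FPKM, and *Ccne2*, a cyclin of S phase entry, from 13.6 to 2.95 FPKM. The clamp gene *Pcna* was at 619 and 341 FPKM, within 2-fold, but its ratio of -0.91 became -1.27 with the length trend removed. At day 6 *Cdk1*, the kinase of mitotic entry, was still at 62.5 FPKM. *Top2a*, a topoisomerase of dividing cells, fell to 72.3 FPKM, a ratio of -1.07 that was -0.69 with the length trend removed.

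Of 19 members of the list of REST and nuclear factor switches 5 rose and 1 fell, with a median of -0.10. Subunits of BAF complexes, which are exchanged in neurons, made up the risers. *Actl6b*, the subunit of neuronal BAF complexes, was at 0.0537 FPKM at day 4 and 4.75 FPKM at day 6, whereas its progenitor counterpart *Actl6a* was at 99.7 and 95.5 FPKM. The subunit genes *Dpf1*, *Dpf3*, *Smarca2* and *Smarcd3* also rose, with ratios of 1.30, 2.46, 1.19 and 1.34. *Rest*, the repressor of neuronal genes in other cells, was highest in ES cells, at 35.8 FPKM, and had 13.2, 4.58 and 2.63 FPKM on days 2, 4 and 6. Its partner *Rcor1* was at 10.2 and 4.60 FPKM, a ratio of -1.20 that became -0.75 with the length trend removed, which leaves 0 of the list past 2-fold lower.

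None of 36 cytosolic ribosomal protein genes and none of 20 respiratory chain genes passed 2-fold, with medians of 0.14 and 0.41. With the length trend removed these became -0.34 and 0.03. Of 14 p53 targets 1 rose and 1 fell, with a median of 0.09. Of 17 glycolysis genes 4 fell and 2 rose. *Ldha*, which makes lactate, fell from 615 to 155 FPKM and *Pgk1* from 601 to 295 FPKM, and the sum of the list went from 10092 to 7185 FPKM. *Slc2a1*, a glucose transporter, fell from 681 to 323 FPKM. *Ldha* in the KO-labelled EBs was at 143 and 185 FPKM and *Slc2a1* at 324 and 299 FPKM, both within 2-fold. Of 17 genes of cholesterol synthesis 4 rose and 0 fell, with a median of 0.53, beside 16.0% of all loci that rose. With the length trend removed 1 of the 17 was past 2-fold, and *Fdps*, which went from 215 to 510 FPKM, had a ratio of 0.76 in place of 1.19.

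Pluripotency genes rose between day 4 and day 6 in both cultures. Of 20 members 18 rose and 1 fell, with a median of 3.51, or 2.85 with 1 FPKM added to both values, and of 1.95 in the culture labelled KO, where 17 rose. The summed FPKM of the list was 6942 in ES cells and 4362, 368 and 1786 on days 2, 4 and 6. Of the 18 that rose, 17 had an ES level at least as high as that of day 6. *Pou5f1* (chr17:35642982-35647721), the central factor of pluripotency, had 859 FPKM in ES cells and 829, 19.9 and 198 FPKM on days 2, 4 and 6. *Nanog* was at 168, 60.4, 3.77 and 62.5 FPKM. *Zfp42*, a marker of naive ES cells, was at 80.6, 65.2, 3.91 and 49.2 FPKM, and the Nodal co-receptor *Tdgf1* at 487, 145, 0.320 and 17.7 FPKM. The one that fell was *Lin28a*, an RNA-binding protein shared by pluripotent and early neural cells, from 199 to 55.9 FPKM. In the culture labelled KO the list was higher on both days, with sums of 1295 and 5004 FPKM, and *Pou5f1* went from 99.1 to 543 FPKM.

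Genes of other cell types were also higher. Of 13 feeder fibroblast genes 10 rose and 2 fell, with a median of 2.66, or 1.65 with 1 FPKM added to both values, and the list summed to 777 FPKM in ES cells and to 99.6, 15.7 and 99.8 FPKM on days 2, 4 and 6. *Col1a1*, the main fibrillar collagen, was at 158, 11.6, 1.23 and 17.0 FPKM. *Acta2*, smooth muscle actin, fell from 2.16 to 0.847 FPKM and rose from 0.658 to 1.75 FPKM in the culture labelled KO. Of 14 genes of epithelium and trophoblast 9 rose and 0 fell, with a median of 1.80 and sums of 846, 835, 178 and 434 FPKM. Keratin genes *Krt7* and *Krt8* rose from 1.73 to 17.0 FPKM and from 12.5 to 47.2 FPKM, and in the culture labelled KO *Krt8* went from 107 to 441 FPKM. Of 9 neural crest genes 8 rose, among them *Sox9* from 1.02 to 6.85 FPKM, with *Sox10*, the defining gene of crest, at 0.174 and 0.577 FPKM.

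Of 19 mesoderm and vessel genes 11 were under 1 FPKM on both days, among them the defining genes *Kdr*, at 0.466 and 0.487 FPKM, and T, at 0.0998 and 0.0451 FPKM. Of the 8 compared 7 rose, with *Tcf15*, which ES cells also express, from 2.10 to 22.7 FPKM. Endoderm genes were mixed, with 2 higher and 3 lower of 11, and with *Afp* and *Ttr* at 0.171 and 0.261 FPKM at day 6. Of 15 glial genes 8 could be compared, 4 rose and 1 fell. The astrocyte genes *Gfap* and *Aqp4* were at 0.173 and 0.00940 FPKM at day 6, and *Fabp7*, a radial glia gene, rose from 4.61 to 21.0 FPKM. None of the 6 blood genes found reached 1 FPKM on either day. The part that RNA of other cells than neurons plays in the counts over all loci was not tested. Of the 564 risers that were at or under their ES level, 376 (66.7%) also rose in the culture labelled KO. Of the 921 that stood above both earlier stages, 300 (32.6%) did.

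Of the 10 largest rises among loci above 1 FPKM on both days, *Sncg*, the gamma-synuclein gene of peripheral and motor neurons, came first, from 1.95 to 146 FPKM. It was followed by *Sst*, *Tubb3*, *Mylpf*, *Nefl*, *Fam25c*, *Pcolce*, *Stmn2*, *Lefty1* and *Nupr1*. *Lefty1*, a Nodal inhibitor of pluripotent cells, was at 68.4 FPKM in ES cells, 1.80 at day 4 and 43.3 at day 6. *Pcolce*, an enhancer of collagen processing, was at 81.9, 1.06 and 28.6 FPKM on the same days, and the muscle light chain gene *Mylpf* at 170, 3.84 and 147 FPKM. In the culture labelled KO *Mylpf* and *Pcolce* reached higher day 6 levels, 424 and 51.6 FPKM, than in the culture labelled WT, whereas *Sncg* reached 4.83 FPKM.

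Among the 10 largest falls were genes that had come on at day 4. *Fgf15*, a fibroblast growth factor that Sonic hedgehog induces in neural progenitors, went from 57.7 FPKM at day 4 to 1.75 FPKM at day 6, a 34.2-fold fall, after 1.81 FPKM in ES cells and 3.10 FPKM at day 2. *Maob*, a monoamine oxidase, fell from 27.9 to 1.57 FPKM, the angiotensin receptor gene *Agtr1a* from 30.2 to 1.76 FPKM, and the immunoglobulin family gene *Prtg* from 112 to 9.84 FPKM. All 3 were under 10 FPKM in ES cells and at day 2. Also among the 10 were *Pygb*, *5430405H02Rik*, *Cpn1*, *Cmah* and *Nupl1*. Of protein-coding genes that fell under 1 FPKM, *ccdc198* had the highest day 4 level, and was at 61.4 FPKM at day 4 and 0.728 FPKM at day 6. *Foxe3*, a forkhead gene, was listed at 0 in ES cells and at day 2, stood at 12.3 FPKM at day 4 and fell to 0.427 FPKM, and in the culture labelled KO fell from 26.8 to 0.0929 FPKM.

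Values at 0 need care. Of the 96 compared loci listed at 0 on one of the days, 82 are short RNAs under 200 bp, which poly-A libraries do not capture well. The translation factor *Eef1a1* is listed at 0 at day 4 and at 7582 FPKM at day 6. Its entry at day 4 carries a status saying that the locus had too many reads to be quantified, so this 0 is a failed estimate and it is counted among the risers by the rule only.

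The same interval in the culture labelled KO shares no library with the one above. Of 13013 loci compared there 1570 rose and 1503 fell. Of the 2052 loci that rose in the culture labelled WT, 948 (46.2%) also rose there, which is 60.4% of the loci that rose there. For falling loci the count was 770, 56.0% of one list and 51.2% of the other. Opposite calls were few, with 55 loci higher under WT and lower under KO, and 17 the other way. Over the 8 lists of proneural, motor neuron, interneuron, cytoskeleton, RNA-binding, synaptic and transmitter genes (motor neuron factors and effectors being separate lists), 137 genes could be compared. In the culture labelled WT 91 rose and 3 fell (66.4% higher, median 1.86). In the culture labelled KO 16 of them rose and 31 fell (median -0.36). The ratio was higher in the culture labelled WT for 129 of the 137. All 137 were admitted by passing 1 FPKM on either day in the culture labelled WT. A gene that passed only at day 6 was selected for a rise there, so these counts are partly set by the filter. Of the 91 risers 15 rose in both, 11 fell in the culture labelled KO and 65 did neither there. The 65 include genes under 1 FPKM there on both days, such as *Isl1*, *Lhx3* and *Ebf3*, which could not be called in that culture. With axon guidance and channels added, 104 of 181 genes rose and 12 fell in the culture labelled WT (57.5% higher, median 1.51), and 17 rose and 54 fell in the culture labelled KO (median -0.53). In the pluripotency list 17 of the 18 risers rose in both cultures. How far clone, label and culture differ cannot be told apart with 1 clone of each.

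**Figure D4:**
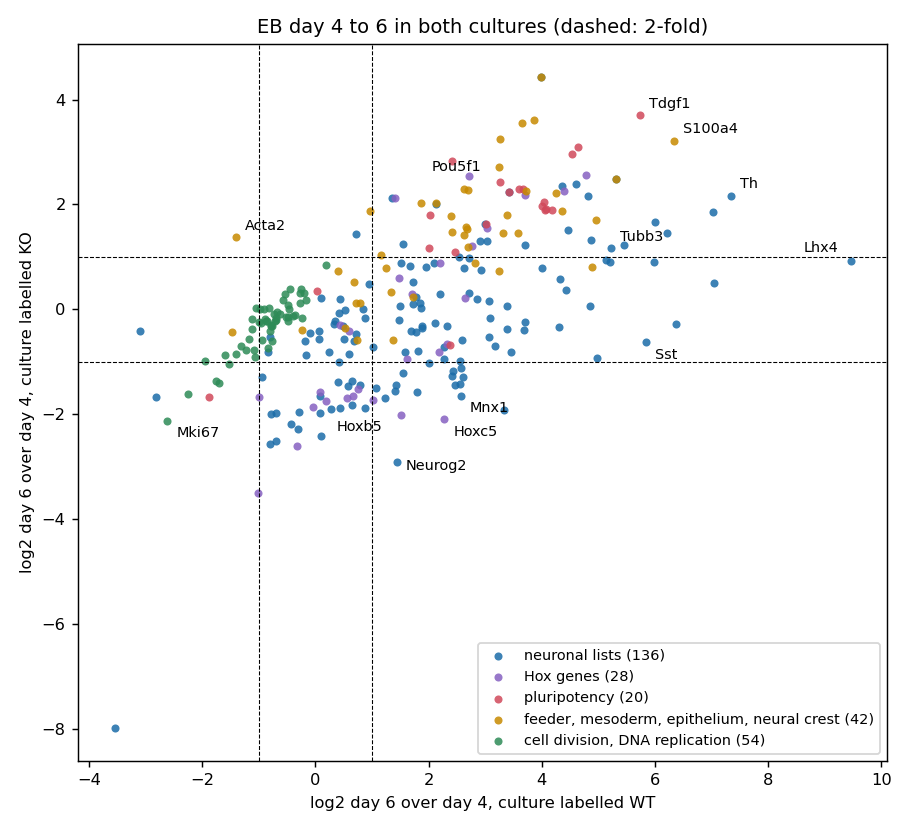
Centred log2 ratio of day 6 over day 4 in the culture labelled WT (x axis) and labelled KO (y axis), each point 1 gene of the lists named in the legend (numbers of genes in parentheses, dashed lines at 2-fold). A gene of lists in different groups is drawn once per group. Most blue neuronal genes lie right of 0, on both sides of 0 on the y axis, with *Neurog2*, *Mnx1*, *Hoxb5* and *Hoxc5* past 2-fold up in one culture and down in the other, while 17 pluripotency genes are past 2-fold up in both.

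TAF9B ChIP peaks, from EBs of day 8 of another ES line (HBG3, which carries GFP under the *Mnx1* promoter), were set beside these loci to ask whether the factor lies near genes that move. Peaks were 10415 for TAF9B and 8620 for RNA POL2. A TAF9B peak lay within 500 bp of a transcription start site (TSS) of 441 of 1960 risers (22.5%, 95% Wilson interval 20.7 to 24.4), of 323 of 1303 fallers (24.8%, 22.5 to 27.2) and of 34.2% (33.3 to 35.2) of loci within 2-fold. Both moving classes were thus below the loci that did not move, whose median level at day 6 was 13.8 FPKM against 6.06 FPKM for risers and 2.98 FPKM for fallers. RNA POL2 peaks at a TSS showed the same order more steeply, at 27.3%, 42.7% and 62.8%. The part of expression level in this was not tested. Intervals cover counting error only, and genes are not independent.

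Distal TAF9B peaks, over 500 bp from every TSS and up to 50 kb from the nearest, were arranged differently. They were assigned to 20.6% of risers (18.8 to 22.4), 16.0% of fallers (14.1 to 18.1) and 14.3% of loci within 2-fold (13.6 to 15.1). The intervals of risers and of loci within 2-fold do not overlap. Among the risers that stood above ES cells and day 2 the share was 24.6% (21.8 to 27.5), and among those that were at or under their ES level it was 15.6% (12.8 to 18.9). POL2 peaks at a TSS divided these kinds in the same way, at 33.5% (30.4 to 36.7) and 12.4% (9.87 to 15.4).

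**Figure D5:**
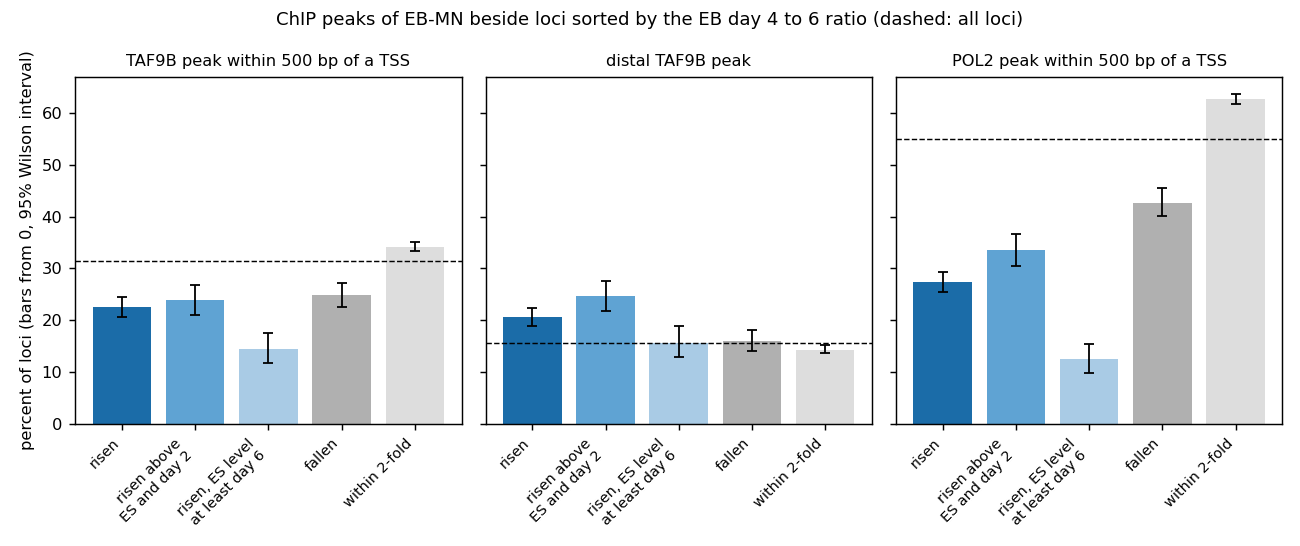
Percent of loci (y axis) with a TAF9B peak at a TSS, a distal TAF9B peak and an RNA POL2 peak at a TSS, for loci sorted by the step from day 4 to day 6, with 95% Wilson intervals (error bars) and the share of all loci compared (dashed). Risers above ES cells and day 2 have the highest share of distal TAF9B peaks, at 24.6%, and risers at or under their ES level have the lowest shares of TSS peaks of both factors, at 14.4% and 12.4%.

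Over the 12379 compared loci with a start site, 15.5% had a distal TAF9B peak, 31.4% a TAF9B peak at a TSS and 55.1% a POL2 peak at a TSS. Of the lists, 11 of 21 proneural and cell cycle exit genes and 14 of 29 cytoskeleton genes had a distal TAF9B peak, and 7 and 13 had one at a TSS, the first of which is near the share of all loci. Distal peaks were also found at 9 of 20 Notch, 7 of 15 retinoic acid and 15 of 34 guidance genes. Among synaptic genes 4 of 19 had one, and among channels and receptors 2 of 14. *Neurog2* had both kinds, with a TSS peak of score 120 at 0.414 kb beside the 2 distal ones printed above. *Tubb3* had a TSS peak of score 202 and *Mnx1* one of score 292. *Ebf1* had 4 distal peaks and 1 at its TSS. Of 25 cell division genes 13 had a TSS peak and 0 a distal one, and of 20 pluripotency genes 3 had each kind and 0 had a POL2 peak. *Tuba1a* had the highest score among the distal peaks of list members read for sequence, 342, at 15.7 kb from its start site.

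CATCTG or CAGATG, either strand of one E-box, was found in 13.8% (11.1 to 17.0) of 200-bp windows under distal peaks of risers, in 19.7% (15.3 to 25.0) of those of fallers and in 17.1% of all 4653 such windows. At TSS peaks the same letters were in 9.05% (6.74 to 12.0) of windows of risers, 5.52% (3.47 to 8.66) of those of fallers and 7.32% of all, so the order of the classes was not the same as at distal peaks, and the intervals of risers and fallers overlap in both. The homeodomain core TAATTA, which reads the same on both strands, was in 3.40% of windows of risers and 4.13% of all. Of the 4 windows printed above, the one at *Ebf3* holds an E-box of this kind, and the other 2 distal windows of *Ebf3* hold none. Of 45 windows read under distal peaks of 31 list genes that rose, 8 hold one. A match is only a match of letters, and its absence from a window says nothing of binding.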

How the data were processed

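Single poly-A RNA libraries of mouse ES cells and EBs were described, 1 per condition, with no replicate and so no test. The authors aligned reads to mm9 with TopHat and made the deposited FPKM values with Cuffdiff, in 1 table per stage that also holds the log2 fold changes, p-values and q-values of the authors' own comparison of genotypes, which were not used. ChIP reads were aligned with Bowtie and peaks called with MACS, and the deposited score of each peak is that of the peak caller. Versions are not given in the sources used here. No column of per-sample values was left unmapped (0).

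Loci were joined on the first RefSeq identifier and the locus, leaving out 43 of 23152 rows under repeated keys. Loci above 1 FPKM in at least 1 library were compared, with no pseudocount, and called past 2-fold. A locus at 0 in 1 library was counted in its direction and given no ratio. Length trends were removed by lowess (fraction 0.3) on the longest transcript, known for 96.7% of loci. A peak was assigned to a TSS within 500 bp of its midpoint, otherwise as distal up to 50 kb. TSSs and transcript lengths were read from a gene annotation of mm9 and coordinates are 1-based. Genes are named as members of 31 lists, as the 10 largest rises and falls above 1 FPKM on both days, and as the 10 highest that crossed 1 FPKM. The members and lists were chosen with earlier results of these data known. Some genes that these rules would name are not reported here. Scripts were tested on simulated data. Python 3.11.15, pandas 2.3.3, numpy 2.4.6, scipy 1.17.1, statsmodels 0.14.6 and matplotlib 3.10.9 were used.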

Additional observations from a re-analysis of the deposited data

Results flagged for a closer look

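Of the members of the lists or genes named by rule, 576 could be compared in the culture labelled WT and 517 in both cultures. Of these, 19 passed 2-fold in opposite directions between day 4 and day 6 in the cultures labelled WT and KO, which is 3.30% of the 576. Over all loci, of which 12800 could be compared in the culture labelled WT and 12315 in both, the count was 72 (0.562% of the 12800). The lists were drawn up with earlier results of these data known. The difference between the cultures was not tested, since each side is 1 library a day. Values are centred log2 ratios, labelled WT first and labelled KO after it. Among transcription factors these were *Neurog2* (1.44 and -2.92), *Mnx1* (2.57 and -1.65), *Hoxb5* (1.52 and -2.01), *Hoxc4* (1.02 and -1.73) and *Hoxc5* (2.28 and -2.10). Among genes of the cytoskeleton and its motors they were *Map2* (2.43 and -1.17), *Crmp1* (2.01 and -1.02), *Gap43* (2.41 and -1.27), *Ina* (2.47 and -1.45) and *Kif5a* (1.41 and -1.55). Among genes of synapses, secretion and receptors they were *Syp* (1.79 and -1.58), *Cadps* (1.43 and -1.45), *Scg3* (2.55 and -1.42) and *Chrna4* (1.05 and -1.59). Guidance and adhesion gave *L1cam* (2.52 and -1.56), *Slit2* (2.58 and -1.12) and *Ephb1* (1.06 and -1.34). *Cxcr4*, a chemokine receptor placed in the endoderm list and also used by migrating neurons, was at 2.03 and -1.17. *Acta2* was the one that fell in the culture labelled WT, at -1.40 against 1.38.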

How the results depend on the processing

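No paired analysis was possible because each condition is 1 library and the days share replicate number 1 only. With no centring, with each library scaled to the same sum of FPKM, and with 1 locus per symbol, the medians of all 30 lists with compared members moved by less than 0.21, the SD of log2 ratios between the ES cell libraries. No median and no named gene past 2-fold changed sign under the alternatives run, but values nearer to 0 did. The guidance median of -0.02 became 0.03 with no centring, 0.72 with the length trend removed and 0.01 for loci with status OK. The channels median of 0.19 became -0.17 above 1 FPKM on both days. Removing the length trend also turned the ribosomal median from 0.14 to -0.34 and that of REST and nuclear factors from -0.10 to 0.07. Scaling to the same sum turned the endoderm median from 0.03 to -0.10 and that of p53 targets from 0.09 to -0.05. Of the named genes within 2-fold, 60 changed sign with the length trend removed, 24 with the same sum and 2 with no centring. Of 292 members or named genes past 2-fold, 25 came within it with the length trend removed, 39 with 1 FPKM added, 8 with the same sum and 1 with no centring. Among those described, removing the length trend did so for *Notch1* (-0.20), *Nrarp* (0.93), *Hoxc4* (0.79), *Robo2* (-0.80), *Top2a* (-0.69), *Rcor1* (-0.75) and *Fdps* (0.76). It also took genes described as within 2-fold past it, among them *Olig2* (-1.02) and *Pcna* (-1.27), and such genes were not counted.

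The count of loci past 2-fold higher at EB day 6, 2052, became 1150 above 1 FPKM on both days, 1112 above 5 FPKM on at least 1 day, 859 past 4-fold and 4539 with no filter on low values. That of loci past 2-fold lower at EB day 6, 1376, became 1023 above 1 FPKM on both days, 347 past 4-fold and 2931 with no filter. Leaving out short RNA loci, or keeping loci with 1 RefSeq identifier, both chosen after seeing the data, kept both counts within 1.5 times.

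Adding 1 FPKM to both values gave medians of 1.40 for proneural factors, 1.56 for motor neuron factors, 0.60 for motor neuron effectors, 0.68 for interneuron factors, 0.94 for Hox genes, 1.01 for RNA-binding proteins, 1.31 for synaptic genes, 1.82 for transmitters, 2.85 for pluripotency, 1.44 for mesoderm, 1.22 for epithelium, 1.65 for feeder fibroblast and 0.96 for neural crest. Removing the length trend gave 1.35 for proneural factors, 1.38 for effectors, -0.25 for Notch, 0.49 for retinoic acid, 0.72 for guidance (from -0.02), 0.59 for channels, 1.5 for epithelium, 3.20 for feeder fibroblast, 0.03 for the respiratory chain and -0.34 for ribosomal proteins. Loci above 1 FPKM on both days gave 0.96 for proneural factors, 0.26 for motor neuron factors, 0.43 for effectors, 0.51 for interneuron factors, 0.67 for Hox genes, 1.72 for the cytoskeleton, 1.21 for RNA-binding proteins, 2.55 for transmitters, -0.17 for channels, 1.90 for mesoderm, 1.25 for epithelium, 2.13 for feeder fibroblast, 2.39 for neural crest and 0.66 for glia. Loci above 5 FPKM on at least 1 day gave 0.48 for effectors, 0.46 for interneuron factors, -0.34 for Notch, 0.40 for retinoic acid, 0.71 for Hox genes, 0.64 for RNA-binding proteins, 0.43 for channels, 0.93 for endoderm, 1.25 for epithelium and 3.58 for feeder fibroblast. Keeping loci with status OK in both tables gave 2.11 for motor neuron factors and 0.53 for effectors. The cause was not tested beyond what each filter removes.

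TSS peaks within 1000 bp were found at 25.2% of risers and 27.4% of fallers, and peaks with at least the median score at 13.0% and 14.8%. Distal peaks up to 20 kb were found at 17.9% and 12.7%, and those of at least the median score at 11.3% and 7.21%. Of 558 values of named genes, 347 moved with the length trend removed and 210 with 1 FPKM added. Depth limits the low values of day 6 most, where 1 FPKM in 2 kb rests on about 61.8 fragments.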
